A study of Mus musculus with 15 samples.

Results

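The 8 genes Rpe65, Lrat, Rlbp1, Rdh5, Rgr, Ttr, Best1 and Mertk, which serve the visual cycle and the retinal pigment epithelium, were followed in whole mouse eyes with their eyelids. They were chosen by gene symbol and make up 8 of the 20418 symbols in the deposited tables. All 8 were present, each with 1 RefSeq transcript. The study asked what the transcription factor Egr1 does in eyelid development, and polyadenylated RNA of each eye was sequenced. It holds 15 libraries, all labelled BALB/c, an albino strain. The Egr1-/- allele had been carried on C57BL/6 and was bred onto BALB/c by 5 (initial) or 4 (second) rounds of backcrossing. At birth there were 2 libraries labelled Egr1 knockout and 2 labelled wild type. At day 3 there were 4 open-eyelid eyes of Egr1-/- mice (right eye of E24, left eye of E29 and both eyes of E32), 2 closed-eyelid eyes of the same Egr1-/- mice E24 and E29, and 2 closed-eyelid eyes of the Egr1+/- mouse E28. In adults there were 2 libraries labelled Egr1 knockout and 1 labelled wild type.

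The visual cycle rebuilds the light-sensitive chromophore of photoreceptors. In the pigment epithelium, the protein of Lrat esterifies retinol, that of Rpe65 isomerises the ester to 11-cis-retinol, and that of Rdh5 oxidises it to 11-cis-retinal. The Rlbp1 protein binds 11-cis retinoids in pigment epithelium and in Müller glia, and Rgr encodes a retinal-binding opsin of the same cells. Ttr encodes a carrier of retinol-binding protein, which the pigment epithelium makes in the eye. Best1 encodes an anion channel, and Mertk a receptor with which the epithelium takes up shed outer segments; macrophages also express Mertk.

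The promoters of 4 of these genes are printed because Rpe65, Lrat and Rgr had wide differences with age and Rlbp1 a difference with genotype. Each is the run of 250 bases before the start site in RefSeq on GRCm38.p6, 5′ to 3′ on the gene's strand. Ttr was not looked up, and the other 7 of the 8 genes each matched 1 promoter. Rpe65 lies at chr3:159598931-159599180 on the plus strand, and Lrat at chr3:82903975-82904224, Rlbp1 at chr7:79387028-79387277 and Rgr at chr14:37049015-37049264 on the minus strand. Capitals mark TAATCC, a core of OTX2 and CRX sites, and the E-box CATGTG, each read on both strands as GGATTA and CACATG where reversed.
Rpe65: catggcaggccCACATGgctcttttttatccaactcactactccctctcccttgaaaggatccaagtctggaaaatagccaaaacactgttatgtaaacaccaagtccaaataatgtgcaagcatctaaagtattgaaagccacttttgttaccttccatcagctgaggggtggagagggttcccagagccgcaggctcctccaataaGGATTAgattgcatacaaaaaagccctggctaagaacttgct
Lrat: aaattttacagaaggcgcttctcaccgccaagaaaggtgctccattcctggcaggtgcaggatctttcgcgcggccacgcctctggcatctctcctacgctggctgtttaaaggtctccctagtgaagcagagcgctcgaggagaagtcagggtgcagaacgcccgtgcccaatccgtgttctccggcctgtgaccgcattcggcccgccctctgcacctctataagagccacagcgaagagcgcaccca
Rlbp1: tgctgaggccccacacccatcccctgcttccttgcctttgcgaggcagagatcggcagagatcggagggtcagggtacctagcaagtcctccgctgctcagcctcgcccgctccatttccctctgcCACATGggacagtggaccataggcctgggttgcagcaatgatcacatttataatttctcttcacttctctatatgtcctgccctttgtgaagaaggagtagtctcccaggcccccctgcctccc
Rgr: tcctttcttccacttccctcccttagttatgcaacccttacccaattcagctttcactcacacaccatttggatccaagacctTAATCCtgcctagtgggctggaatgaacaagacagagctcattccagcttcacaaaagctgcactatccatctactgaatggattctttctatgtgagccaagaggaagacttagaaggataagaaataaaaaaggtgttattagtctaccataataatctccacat
TAATCC was found in Rpe65, Rgr and Best1, and in 6.25% of 32841 promoter windows of this length. CATGTG was found in Rpe65 and Rlbp1, and in 12.3% of windows. The palindromic E-box CACGTG was in none of the 7 and in 6.02% of windows. These matches describe letters only.

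The libraries held 20334849 to 43907093 counted reads. Values per library are given as CPM, counts scaled to the library total after TMM adjustment, which compares 1 gene between libraries but not genes of different length. Egr1 itself went against the labels. It had 214 and 273 CPM in the 2 newborn libraries labelled knockout, against 47.0 and 60.8 CPM in wild-type newborns. It had 255 and 185 CPM in the adult libraries labelled knockout, against 33.2 CPM in the adult wild type. At day 3 it ranged between 156 and 366 CPM in the 6 eyes labelled Egr1-/-, against 99.0 and 110 CPM in the eyes labelled Egr1+/-. Counts over the whole transcript do not show whether an allele is disrupted, so the libraries are called by their labels. Lens markers also set libraries apart. Their summed level was 713 CPM in replicate 1 of the newborn labelled knockouts, against 73366 to 84671 CPM in the other newborn libraries. It was 9368 CPM in replicate 1 of the adult labelled knockouts and 43476 to 57357 CPM in the other adult libraries.

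Per length, the deposited RPKM values (counts scaled for exon length and depth) gave another order of the genes before and after day 3. In the 4 newborn libraries Rlbp1 had 31.1 to 93.3 RPKM, Rdh5 25.3 to 38.0 RPKM, Rgr 20.8 to 37.6 RPKM and Ttr 14.98 to 28.1 RPKM, and each of these overlapped its neighbours. Mertk had 1.08 to 2.19 RPKM, Lrat 0.208 to 0.382 RPKM and Rpe65 0.0377 to 0.403 RPKM at birth, with Lrat and Rpe65 overlapping. In the 8 day 3 eyes Rlbp1 had 26.0 to 92.8 RPKM, Rdh5 16.7 to 39.8 RPKM, Rgr 19.5 to 37.8 RPKM and Ttr 9.89 to 16.9 RPKM, while Mertk had 0.881 to 2.45 RPKM, Lrat 0.0686 to 0.299 RPKM and Rpe65 0 to 0.0362 RPKM. Rgr led in the 3 adult libraries at 329 to 401 RPKM. Ttr followed at 252 to 344 RPKM, Rlbp1 at 189 to 216 RPKM, Rdh5 at 104 to 124 RPKM, Rpe65 at 43.9 to 79.6 RPKM, Lrat at 12.8 to 27.4 RPKM and Mertk at 3.28 to 5.65 RPKM. Best1 came last at 0 to 0.107 RPKM. Among neighbours in the adult order only Rgr and Ttr overlapped.

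**Figure D1:**
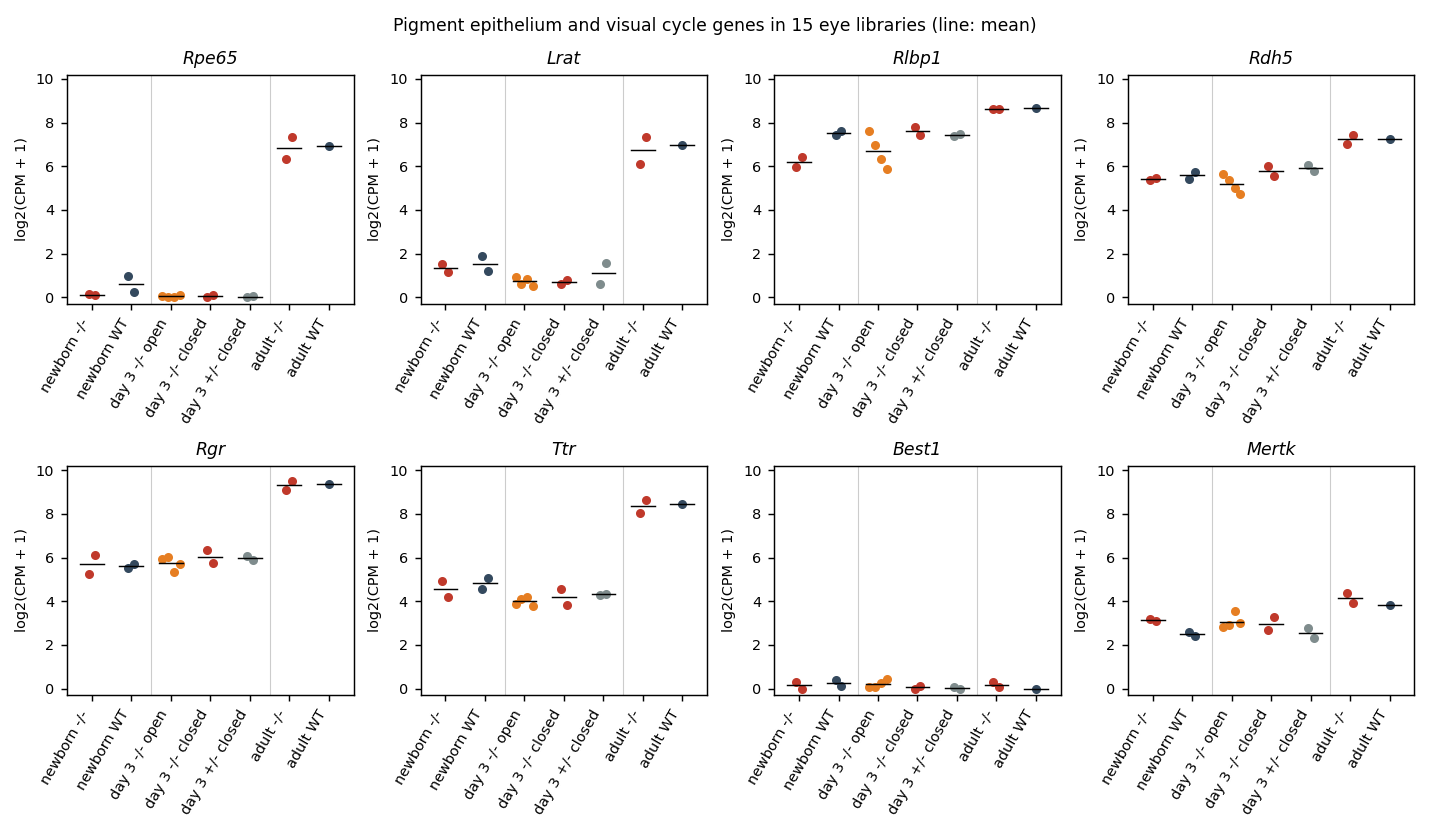
Level of each of the 8 genes as log2(CPM + 1) in the 15 libraries, by age and label, with a line at each group's mean. The adult libraries stand above all younger ones for every gene but Best1, and Rpe65 and Lrat lie near 0 to 2 before adulthood.

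The age comparison set adult against newborn eyes. Lrat, Rlbp1, Rdh5, Rgr, Ttr and Mertk, the 6 genes with enough reads at both ages, were each higher in adult eyes (edgeR's quasi-likelihood test, Benjamini-Hochberg adjusted over all genes tested). Of all 17592 genes tested 25.3% were called higher, 24% lower and 49.2% in either direction. The median log2 fold change was 2.72 for the 6 genes and -0.04 for all genes tested. Of the 15603 genes that did not pass the filter through their high group alone, 27.8% were called higher and 24.8% lower, with a median of 0.03. Rpe65 did not pass the low-count filter in the newborn libraries on their own and Best1 had too few reads at every age, so the age values of these 2 genes are a description with no test. In whole eyes, fewer cells of a type and less RNA per cell cannot be told apart, and age cannot be told apart from library preparation if the ages were prepared separately.

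Rpe65, the isomerase, showed the widest step. It had 3 and 2 reads in the newborn labelled knockouts and 20 and 4 reads in the newborn wild types, 0 to 2 reads in each of the 8 day 3 eyes, and 1823 and 3504 reads in the adult labelled knockouts and 2616 in the adult wild type. In CPM these adult values were 80.0 and 162 in the labelled knockouts and 120 in the wild type. All 3 adult libraries stood above all 12 younger ones. As a ratio of summed reads per scaled total it was 415 in adult over newborn eyes, with 95% counting bounds of 288.5 and 620, and 4149 in adult over day 3 eyes, with bounds of 1905 and 11309; these bounds cover counting error only. Replicate 1 of the newborn wild types held 20 of the 29 newborn reads. The fitted adult over newborn log2 value was 9.03, and 9.88 without that library.

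Lrat, the acyltransferase of the preceding step, followed the same course on a smaller scale. At birth it had 1.86 and 1.23 CPM in labelled knockouts and 2.67 and 1.28 CPM in wild types. In the 8 day 3 eyes the lowest was 0.439, the median 0.638 and the highest 2.01 CPM. In adults it had 67.3 and 162 CPM in the labelled knockouts and 125 CPM in the wild type. The adults again did not overlap with either younger age, and the log2 fold change over newborn eyes was 6.09 ± 0.41 (SE, edgeR adjusted p = 5.35e-05).

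Rdh5, the 11-cis-retinol dehydrogenase, was already present at birth. Newborn labelled knockouts had 39.8 and 42.9 CPM and newborn wild types 41.6 and 53.0 CPM. It had 25.2 (lowest), 47.4 (median) and 66.6 CPM (highest) in day 3 eyes, and 129 and 172 CPM in the adult labelled knockouts and 149 CPM in the adult wild type. The newborn and day 3 ranges overlapped and the adult range lay above both. Its adult over newborn log2 fold change was 1.75 ± 0.17 (SE, edgeR adjusted p = 0.000237).

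The 2 retinoid-binding proteins of the list differed in size of step. Rgr had 37.1 and 68.9 CPM in newborn labelled knockouts, against 45.1 and 51.3 CPM in wild-type newborns, with 39.8, 59.8 and 79.2 CPM as the lowest, median and highest day 3 eye. Its adult levels were 539 and 736 CPM in the labelled knockouts and 655 CPM in the wild type, a log2 fold change over newborn eyes of 3.66 ± 0.28 (SE, edgeR adjusted p = 8.2e-05). Rlbp1 had 398 and 390 CPM in the adult labelled knockouts and 401 CPM in the adult wild type, the tightest adult values of the 8 genes relative to their mean. Its adult over newborn log2 fold change was 1.78 ± 0.18 (SE, edgeR adjusted p = 0.000282). Between the wild types alone this value for Rlbp1 was 1.11 ± 0.28 (SE, edgeR adjusted p = 0.0212), and between the labelled knockouts alone 2.45 ± 0.25 (SE, edgeR adjusted p = 0.00041).

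Ttr, the retinol transport protein, had 29.8 and 17.4 CPM in newborn labelled knockouts, against 22.4 and 32.7 CPM in wild-type newborns. The day 3 eyes had 12.7 (lowest), 16.7 (median) and 22.4 CPM (highest). Adult labelled knockouts had 261 and 400 CPM and the adult wild type 344 CPM, with a log2 fold change over newborn eyes of 3.71 ± 0.28 (SE, edgeR adjusted p = 8.51e-05). Liver is the main source of Ttr in the body. The summed level of 9 liver markers was at most 12.6 CPM in any library, in the adult wild type, and at most 0.926 CPM in the adult labelled knockouts. Markers of ciliary body and choroid (6 genes) summed to 649 to 1141 CPM at birth and 975 to 1343 CPM in adults. Of these 6, 4 were called higher and 1 lower in adult than in newborn eyes. The part of any of these cells in the Ttr values was not tested. Ttr lies on chromosome 18 in the files.

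Mertk, the phagocytic receptor, had the smallest fold change of the 6 genes tested. Its newborn values are given with the genotype comparison. Day 3 eyes had 3.93 (lowest), 6.28 (median) and 10.7 CPM (highest), and adults 19.8 and 14.3 CPM in the labelled knockouts and 13.2 CPM in the wild type. Its adult over newborn log2 fold change was 1.31 ± 0.17 (SE, edgeR adjusted p = 0.000886).

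Best1 was the exception. It had 0 to 9 reads in every library. The adult labelled knockouts had 5 and 1 reads and the adult wild type 0 reads, where 3 reads would be 0.138 CPM. The ratio of adult to newborn eyes was 0.606 with 95% counting bounds of 0.193 and 1.65. No difference was detectable with so few reads, and the cause of the low Best1 counts was not tested. The summed level of 9 pigment epithelium markers, of which Rpe65, Lrat, Rdh5, Rgr and Best1 are also described here, was higher in adults. It was 209 and 302 CPM in newborn labelled knockouts and 428 and 521 CPM in newborn wild types, 182 to 642 CPM at day 3 and 1090 to 1535 CPM in adults. Most of this rise is that of Rgr, Rdh5, Rpe65 and Lrat, with Rgr alone averaging 643 CPM in adult and 50.6 CPM in newborn eyes. Among the other markers, Kcnj13 averaged 64.3 CPM in adult and 3.96 CPM in newborn eyes, Mitf and Slc16a8 were also higher, and Otx2 was lower on average. Best1 is the only one of these 9 markers at or near 0 in adult eyes.

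Photoreceptor and glial markers moved with age as well. The summed level of 11 rod markers was 68.1 to 1033 CPM at birth, 42.7 to 955 CPM at day 3 and 24592 to 49769 CPM in adults, and 11 of 11 were called higher in adult than in newborn eyes. For 8 Müller glia markers, Rlbp1 among them, it was 884 to 2081 CPM at birth, 1602 to 3133 CPM at day 3 and 3143 to 3466 CPM in adults, and 6 of 8 were called higher. No gene of either list was at 0 at any age. Their part in the age differences was not tested.

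**Figure D2:**
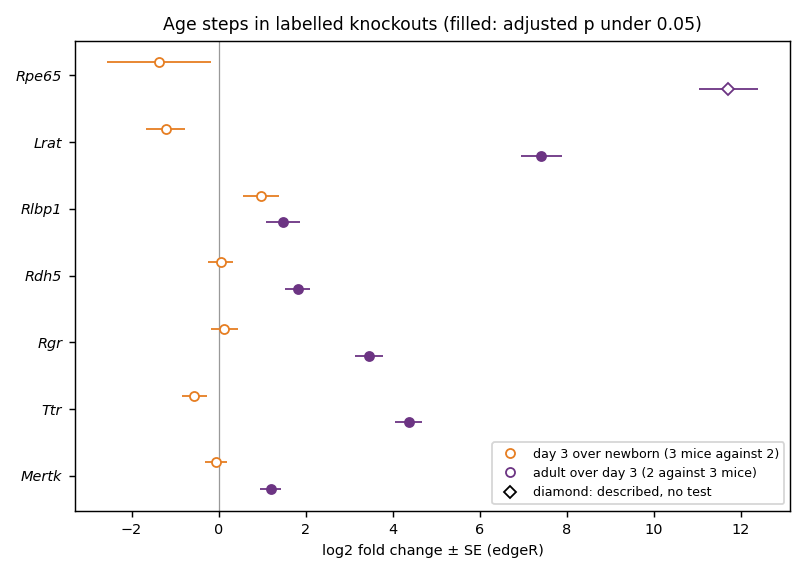
Log2 fold change ± SE (edgeR) of 7 genes between consecutive ages within the labelled knockouts, day 3 over newborn and adult over day 3, with filled points where the adjusted p was under 0.05. In the later step 6 genes pass, from 1.20 for Mertk to 7.42 for Lrat, and Rpe65 at 11.72 is drawn as a diamond with no test. None passes in the earlier step, where the Rpe65 point is a fitted value with no test.

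The day 3 eyes divide the age comparison into an earlier and a later step. Within the labelled knockouts, the 3 day 3 mice (both eyes of a mouse summed) were set against the 2 newborn libraries. None of the 6 genes with enough reads at both ages passed edgeR's test. Of all 17980 genes tested 17.8% did, with 11.1% called higher and 6.7% lower. Of the 15118 that did not pass the filter through their high group alone, 13.1% were called higher and 6.73% lower. Rpe65, with at most 3 reads in any of these libraries or mice, had a fitted value of -1.37, given with no test. Lrat was at -1.22 ± 0.45, Ttr at -0.56 ± 0.29 and Mertk at -0.06 ± 0.25 on the log2 scale (SE). Rdh5 was at 0.05 ± 0.29, Rgr at 0.13 ± 0.31 and Rlbp1 at 0.97 ± 0.41. The edgeR adjusted p lay between 0.0931 for Lrat and 0.915 for Rdh5. Lrat passed with DESeq2 (-1.23, adjusted p = 0.044) and when scaled to the authors' library totals (-1.45, edgeR adjusted p = 0.0454). Rlbp1 passed without mouse E32 (1.14, edgeR adjusted p = 0.00742). The authors' totals moved the median of all genes in this comparison to -0.30, against -0.08 under TMM, and 33% of calls were then higher in day 3 mice, against 62.5% under TMM. Rdh5 and Rgr, at 0.05 and 0.13 under TMM, were at -0.18 and -0.088 under those totals.

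In the later step, adult against day 3 labelled knockouts, the 6 genes other than Rpe65 and Best1 were called higher. Of all genes tested 24.4% were called higher, 25.7% lower and 50.1% in either direction. Of the 14803 that did not pass the filter through their high group alone, 24.5% were called higher and 29% lower. The log2 fold changes were 7.42 ± 0.48 for Lrat, 4.37 ± 0.31 for Ttr, 3.46 ± 0.31 for Rgr, 1.82 ± 0.28 for Rdh5, 1.47 ± 0.39 for Rlbp1 and 1.20 ± 0.25 for Mertk (SE), with edgeR adjusted p between 3.11e-05 for Lrat and 0.0141 for Rlbp1. Rpe65, which did not pass the filter in the day 3 mice on their own, had a fitted value of 11.72, given with no test. With either adult labelled knockout left out, Rlbp1 no longer passed (1.46, edgeR adjusted p = 0.0531 without replicate 1, and 1.49, adjusted p = 0.0521 without replicate 2). The authors' totals moved the median of all genes in this step to 0.34, against 0.07 under TMM, and 62.8% of calls were then higher in adults, against 48.7% under TMM; the 6 genes were higher under both. The day 3 labelled knockouts enter both steps.

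The counts for the wider lists in adult over newborn eyes stand beside the 25.3% of all genes called higher and 24% called lower. Without genes that passed the filter only through their high group, these shares were 27.8% and 24.8%. The list of 22 other visual cycle genes holds the cone opsin Opn1mw, which averaged 37.8 CPM in adult eyes and 0.137 CPM in newborn eyes, did not pass the filter in the newborn libraries on their own and is given with no test. Of the other 21 visual cycle genes, 12 were called higher and 1 lower, with a median log2 fold change of 0.59. Rdh8 and Rdh12, retinal reductases of photoreceptors, averaged 54.3 and 263 CPM in adult eyes and 1.30 and 5.18 CPM in newborn eyes. Abca4, the retinoid flippase of outer segments, averaged 575 CPM in adult eyes and 26.4 CPM in newborn eyes (4.53 ± 0.19, edgeR adjusted p = 1.38e-05). The gene called lower was the opsin Opn3, with 1.58 CPM in adult eyes and 5.32 CPM in newborn eyes (-1.74 ± 0.23, edgeR adjusted p = 0.000913), named here after its value was seen.

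Among 39 other pigment epithelium genes, 19 were called higher and 5 lower in adult eyes, with a median log2 fold change of 0.38. Kcnj13, a potassium channel of the apical membrane, averaged 64.3 CPM in adult eyes and 3.96 CPM in newborn eyes (4.01 ± 0.18, edgeR adjusted p = 1.68e-05). The amino acid transporter Slc6a20a, the organic anion transporter Slco1a4 and the matrix protein gene Efemp1 differed by 3.12 ± 0.19, 2.85 ± 0.17 and 2.10 ± 0.17 on the log2 scale (SE). Among the marker genes of the epithelium, Mitf, the pigment cell regulator, averaged 33.3 CPM in adult eyes and 19.2 CPM in newborn eyes (0.80 ± 0.14, edgeR adjusted p = 0.00246). Slc16a8, the lactate transporter, averaged 84.7 CPM in adult eyes and 54.9 CPM in newborn eyes (0.61 ± 0.14, edgeR adjusted p = 0.00892). Otx2 averaged 107 CPM in adult eyes and 190 CPM in newborn eyes and did not pass (-0.51 ± 0.30, edgeR adjusted p = 0.195); its age value was chosen after it was seen.

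**Figure D3:**
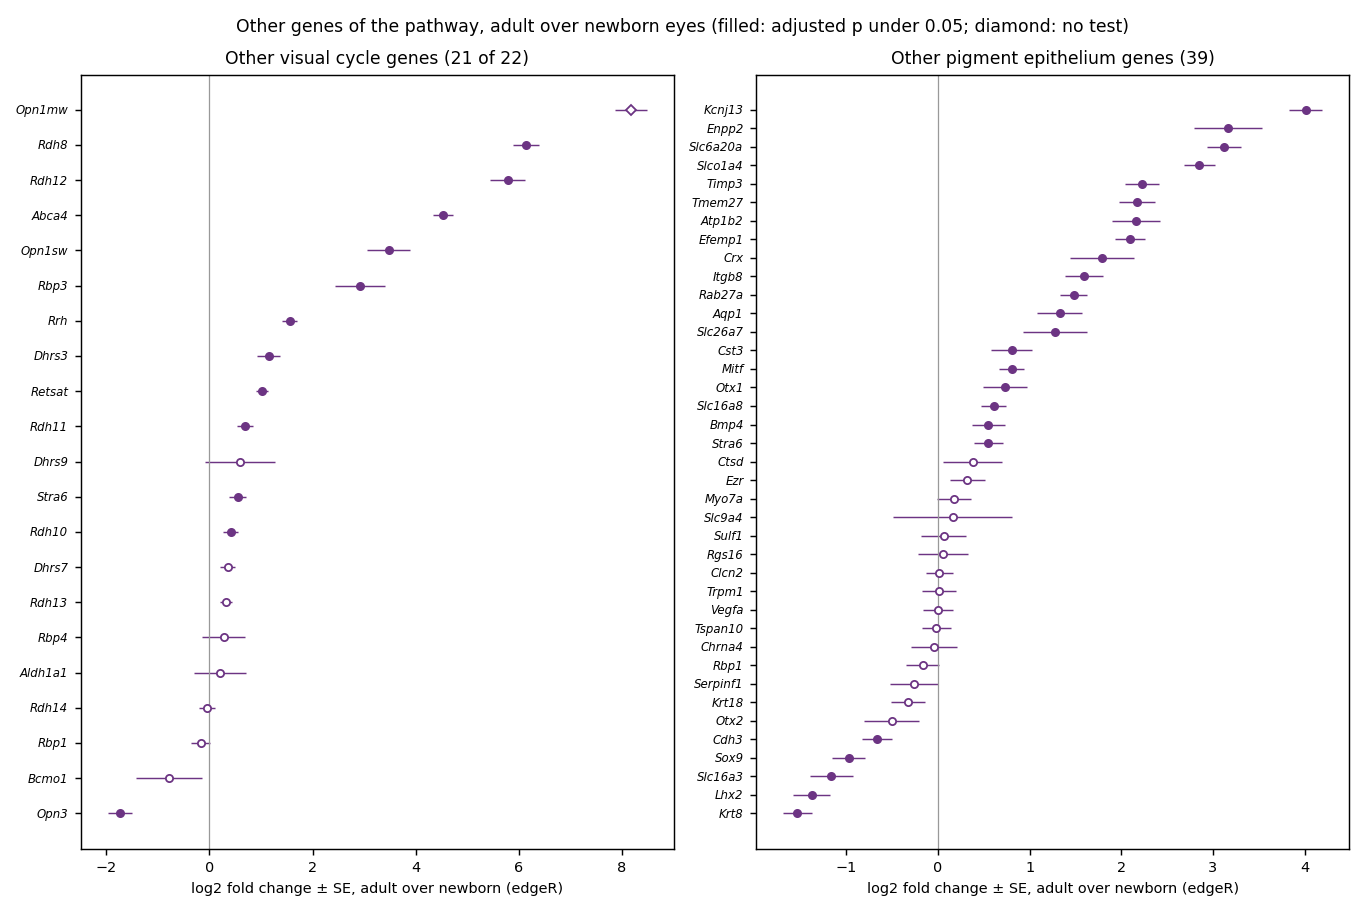
Log2 fold change ± SE (edgeR) in adult over newborn eyes for 21 of the 22 other visual cycle genes and 39 other pigment epithelium genes, with filled points where the adjusted p was under 0.05. Of the visual cycle genes drawn 11 are filled on the higher side and 1 on the lower, Opn1mw is a diamond with no test, and of the 39 pigment epithelium genes 19 and 5 are filled.

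Of 11 pigment genes, 5 were called higher and 0 lower in adult than in newborn eyes, with a median log2 fold change of 0.56, among them Tyrp1 (1.35 ± 0.17), Mlana (1.02 ± 0.16), Oca2 (0.78 ± 0.26) and Tpcn2 (0.56 ± 0.16). Of 17 genes for the uptake of outer segments, 8 were called higher and 2 lower, with a median of 0.58. These included Tub and Tulp1, reported ligands of Mertk, with 2.22 ± 0.15 and 3.18 ± 0.32 on the log2 scale. They also included the engulfment adaptor gene Elmo1 with 1.43 ± 0.12 and the galectin gene Lgals3 with 2.69 ± 0.24 (SE).

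In the step from birth to day 3 within the labelled knockouts, where 11.1% of all genes were called higher and 6.7% lower, few genes of these lists passed. These shares were 13.1% and 6.73% without genes that passed the filter only through their high group. Of the 22 visual cycle genes, Opn1mw and Rdh8 had too few reads at 1 of these ages. Stra6, the retinol-binding protein receptor, was the 1 of the other 20 called higher (0.89 ± 0.20, edgeR adjusted p = 0.0248), and 0 were lower. Slc9a4 also had too few reads, and of the other 38 pigment epithelium genes 4 were called higher and 1 lower. Lhx2 averaged 377 CPM in day 3 mice and 64.9 CPM in newborn libraries (2.55 ± 0.40). Its level was 63.0 CPM in the left eye of E32, against 51.7 and 78.2 CPM in the newborn libraries. The other Egr1-/- eyes at day 3 had 325 to 487 CPM of Lhx2. Sox9, a transcription factor gene (1.05 ± 0.19), and the acetylcholine receptor gene Chrna4 (2.10 ± 0.47) were also higher, with Stra6. None of 11 pigment genes passed. Of 17 phagocytosis genes, 1 was called higher (Elmo1, 0.75 ± 0.14) and 2 lower, the gene of the Mertk ligand protein S, Pros1 (-1.02 ± 0.23), and Itgav (-0.60 ± 0.16).

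In the step from day 3 to adulthood, 24.4% of all genes were called higher and 25.7% lower. Without genes that passed the filter only through their high group, these shares were 24.5% and 29%. Of the 20 visual cycle genes other than Opn1mw and Bcmo1, which had too few reads at 1 of these ages, 8 were called higher and 1 lower, with a median log2 fold change of 0.55; Rdh12 (5.86 ± 0.37) and Abca4 (3.84 ± 0.31) were higher. Slc9a4 of the pigment epithelium list had too few reads at 1 of these ages. Of the other 38 pigment epithelium genes, 14 were called higher and 6 lower, with a median of 0.17. Kcnj13 (4.15 ± 0.24), the matrix inhibitor gene Timp3 (2.23 ± 0.18) and Slco1a4 (3.88 ± 0.36) were higher, as was the melanosome transport gene Rab27a, which averaged 126 CPM in adult libraries and 35.8 CPM in day 3 mice (edgeR adjusted p = 0.000109). Of 11 pigment genes, 3 were called higher, Tyrp1 (1.57 ± 0.26), Mlana (1.60 ± 0.28) and Dct (0.97 ± 0.25), and 0 lower. Of 17 phagocytosis genes, 7 were called higher and 3 lower, with Tub (1.89 ± 0.28) and Itgav (1.03 ± 0.16) among the higher and the integrin gene Itgb5 (-1.28 ± 0.18) and the receptor gene Tyro3 (-1.07 ± 0.16) among the lower.

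The genotype comparison at birth set 2 labelled knockouts against 2 wild types. Rlbp1, the retinoid-binding protein, was the 1 gene that passed of the 6 with enough reads in both genotypes. Of all 17592 genes tested 24% were called, 14.6% higher and 9.38% lower. Of the 15056 that did not pass the filter through their high group alone, 16.5% were called higher and 10.6% lower. Rlbp1 had 60.6 and 84.1 CPM in the labelled knockouts, against 173 and 193 CPM in the wild types, and the groups did not overlap. The log2 fold change was -1.33 ± 0.24 (SE, edgeR adjusted p = 0.00896). Without replicate 1 or replicate 2 of the wild types, or without replicate 1 of the labelled knockouts, it was -1.39, -1.21 and -1.11 and no longer passed (edgeR adjusted p = 0.0626, 0.0658 and 0.058). Over all genes, the calls were 0, 728 and 2089 without these 3 libraries, against 4226 with all.

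Markers of other cells also differed between genotypes at birth, in both directions. The summed level of the 8 Müller glia markers, Rlbp1 included, was 884 and 1332 CPM in the labelled knockouts, against 1837 and 2081 CPM in the wild types. Of these 8 genes 2 were called higher, Abca8a and Aqp4, and 2 lower, Slc1a3 and Rlbp1 itself. The 11 rod markers summed to 68.1 and 209 CPM in the labelled knockouts, against 899 and 1033 CPM in the wild types, and 11 of 11 were called lower. The 10 keratinocyte markers summed to 11301 and 8390 CPM in the labelled knockouts, against 1094 and 1945 CPM in the wild types, and 7 of 10 were called higher. The 9 pigment epithelium markers summed to 209 and 302 CPM in the labelled knockouts, against 428 and 521 CPM in the wild types. Of the 7 with enough reads in both genotypes, 0 were called higher and 1 lower. It was Otx2, a transcription factor of pigment epithelium and photoreceptors (-2.02 ± 0.38, edgeR adjusted p = 0.0106). Otx2 averaged 74.9 CPM in the labelled knockouts and 305 CPM in the wild types. It had 45.8 and 104 CPM in the labelled knockouts, against 271 and 339 CPM in the wild types. On average Otx2 differed by more than the sums did, so the other markers together were not lower in the labelled knockouts. The 6 cone markers summed to 13.0 and 31.9 CPM in the labelled knockouts, against 122 and 117 CPM in the wild types, and the 3 with enough reads in both groups were called lower. Of the genes of these 5 marker lists, Best1 alone was at 0, in replicate 2 of the labelled knockouts. Their part in the Rlbp1 difference was not tested. With lens genes removed from the counts, Rlbp1 was at -1.32 (edgeR adjusted p = 0.00847).

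The other visual cycle enzymes did not pass at birth or had too few reads to test. Rpe65 had 3 and 2 reads in the labelled knockouts, against 20 and 4 in the wild types, so the difference rests on wild-type replicate 1. The ratio was 0.163 with 95% counting bounds of 0.0487 and 0.437 against both wild types, and 0.520 with bounds of 0.112 and 2.62 against replicate 2 alone. Rpe65 did not pass the filter in the newborn labelled knockouts on their own. Its fitted log2 value of -2.56 is given with no test. Lrat was at -0.32 ± 0.55, Rdh5 at -0.19 ± 0.22, Rgr at 0.15 ± 0.34 and Ttr at -0.22 ± 0.35 on the log2 scale (SE), with edgeR adjusted p of 0.564 for Rdh5 to 0.782 for Rgr, and the groups overlapped for each of these 4 genes. Best1 had 7 and 0 reads in the labelled knockouts, against 6 and 2 in the wild types.

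Mertk was higher in both newborn labelled knockouts, at 8.12 and 7.40 CPM, than in the wild types, at 4.99 and 4.33 CPM. The log2 fold change of 0.75 ± 0.23 did not pass (SE, edgeR adjusted p = 0.0548). It passed when replicate 1 or replicate 2 of the adult labelled knockouts was left out of the fit (edgeR adjusted p = 0.0239 and 0.0199) and with the authors' totals (0.90, edgeR adjusted p = 0.05 as rounded). Those totals moved the median of all genes at birth to 0.08, against -0.07 under TMM, and 71.7% of calls were then higher in labelled knockouts, against 61% under TMM. The 11 macrophage markers, cells that express Mertk, summed to 454 and 363 CPM in the labelled knockouts, against 135 and 137 CPM in the wild types, and 4 of 11 were called higher. Their part in the Mertk values was not tested.

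The wider lists at birth stand beside 14.6% of all genes called higher and 9.38% called lower in labelled knockouts. Without genes that passed the filter only through their high group, these shares were 16.5% and 10.6%. Of 22 visual cycle genes, Dhrs9, Opn1mw and Rdh8 had too few reads in 1 of the genotypes, and of the other 19, 4 were called higher and 3 lower. Rdh8 averaged 0.278 CPM in the labelled knockouts and 2.31 CPM in the wild types, given with no test, and the retinal-binding opsin Rrh, also of the pigment epithelium, averaged 4.73 CPM in the labelled knockouts and 11.8 CPM in the wild types (-1.31 ± 0.20). The short-chain dehydrogenase gene Dhrs7 and the retinol saturase gene Retsat were called higher (0.95 ± 0.19 and 0.79 ± 0.16). Slc9a4 of the pigment epithelium list had too few reads in 1 of the genotypes. Of the other 38 pigment epithelium genes, 12 were called higher and 5 lower. Krt8, a keratin of simple epithelia that includes this one, averaged 325 CPM in the labelled knockouts and 64.7 CPM in the wild types (2.33 ± 0.19). The eye field factor Lhx2 averaged 64.9 CPM in the labelled knockouts and 241 CPM in the wild types (-1.88 ± 0.25). Efemp1 (1.54 ± 0.22) and the cadherin gene Cdh3 (1.39 ± 0.20) were called higher. Keratinocyte markers were also higher in the labelled knockouts, and their part in the Krt8, Efemp1 and Cdh3 values was not tested. Of 11 pigment genes, 1 was called higher (Tpcn2, 1.02) and 0 lower. Of 17 phagocytosis genes, 7 were called higher, with Lgals3 (2.47 ± 0.33) and the integrin Itgav (1.19 ± 0.16), and 2 lower, with Tub (-1.26 ± 0.19) and Tulp1 (-2.60 ± 0.42).

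**Figure D4:**
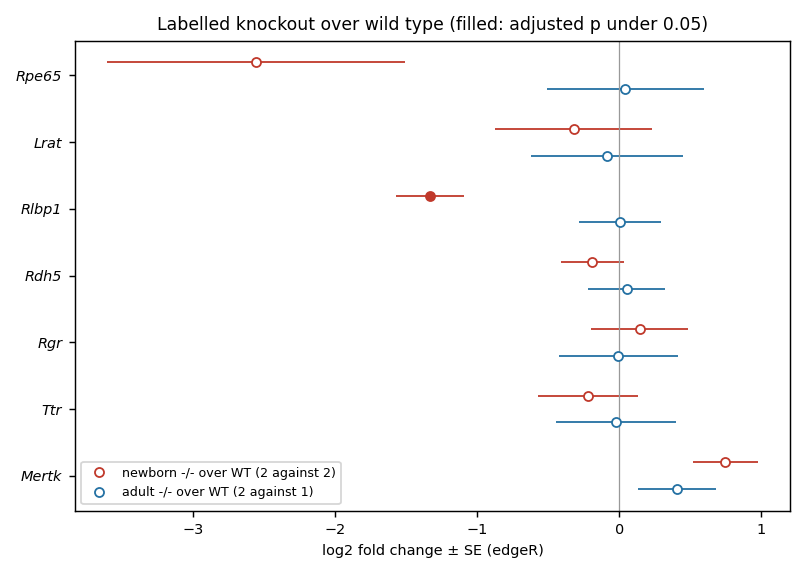
Log2 fold change ± SE (edgeR) of 7 genes in labelled knockouts over wild types, in newborn (red, 2 against 2) and adult eyes (blue, 2 against 1), with filled points where the adjusted p was under 0.05. Rlbp1 at birth is the only filled point, at -1.33, and the adult values lie between -0.09 and 0.40. The Rpe65 point at birth is a fitted value with no test.

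In adult eyes, 2 labelled knockouts were set against 1 wild type, whose spread was taken to be that of the replicated groups. No gene of the 7 tested passed, and 0% of all 17592 genes did in edgeR's test, with 506 genes at an unadjusted p under 0.05 and 102 called by DESeq2. The wild type lay between the 2 labelled knockouts for Rpe65, Lrat, Rdh5, Rgr and Ttr. The log2 fold changes were 0.04 ± 0.55 for Rpe65, -0.09 ± 0.53 for Lrat, 0.01 ± 0.29 for Rlbp1, 0.05 ± 0.27 for Rdh5, -0.01 ± 0.42 for Rgr and -0.02 ± 0.42 for Ttr (SE). Mertk was at 0.40 ± 0.28, with both labelled knockouts above the wild type. Each of the 7 had an edgeR adjusted p of 1. Replicate 1 of the labelled knockouts had the lower level of Rpe65, Lrat, Rdh5, Rgr and Ttr. It also had the lower summed level of the rod markers, at 24592 CPM against 39007 CPM in replicate 2, and of the pigment epithelium markers, at 1090 CPM against 1535 CPM. None of the 22 visual cycle, 39 pigment epithelium, 11 pigment and 17 phagocytosis genes passed.

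The genotype effect in adults was set against that at birth in the same fit. The difference for Rlbp1 was 1.34 ± 0.38 on the log2 scale (SE, edgeR adjusted p = 0.103), and it passed with DESeq2 (1.36, adjusted p = 0.00195). For Rpe65, with too few newborn reads to test, it was 2.60. It was 0.91 without replicate 1 and 3.36 without replicate 2 of the newborn wild types. It was 0.23 ± 0.77 for Lrat, 0.24 ± 0.35 for Rdh5, -0.15 ± 0.54 for Rgr, 0.20 ± 0.55 for Ttr and -0.34 ± 0.35 for Mertk (SE, edgeR adjusted p of 0.658 for Mertk to 0.921 for Rgr). Best1 had too few reads. None of the 6 genes other than Rpe65 and Best1 passed in edgeR. Of all genes tested 2.8% did, 0.995% with a higher and 1.8% with a lower effect in adults. Of all calls 35.6% were higher under TMM and 21.8% with the authors' totals. Of the genes of the wider lists, Krt8 (-2.62) and Efemp1 (-1.73) were the 2 that passed, both with a lower effect in adults.

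At day 3, the open eyelid was set against the closed eyelid with the mouse as a block, so that mice E24 and E29, which had 1 open and 1 closed eye each, carry the comparison. None of the 6 genes tested passed, against 0.548% of 15159 genes, 0.488% higher and 0.0594% lower. Each had an edgeR adjusted p of 1. Rlbp1 had 193 CPM in the open eye of E24 against 219 CPM in its closed eye, and 124 CPM in the open eye of E29 against 172 CPM in its closed eye, a log2 fold change of -0.31 ± 0.19. Rdh5 had 49.0 CPM open against 63.2 CPM closed in E24 and 40.6 CPM open against 45.7 CPM closed in E29 (-0.26 ± 0.19). Both genes were lower in the open eye of both mice. The 2 mice went opposite ways for Rgr (-0.04 ± 0.21), Ttr (-0.19 ± 0.30), Mertk (-0.11 ± 0.37) and Lrat (0.15 ± 0.84). Rpe65 and Best1 had too few reads to test.

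**Figure D5:**
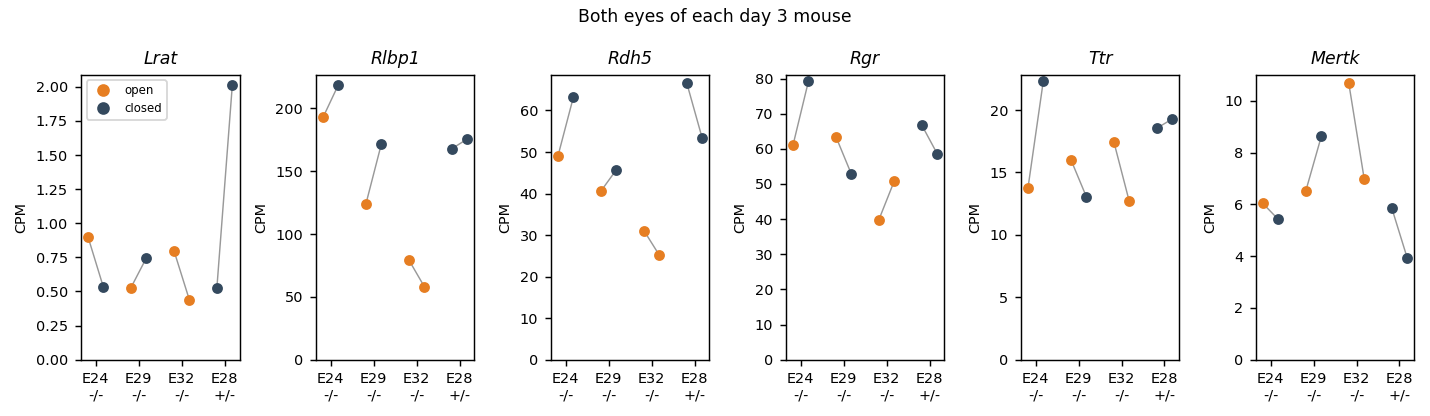
CPM of 6 genes in both eyes of each day 3 mouse, joined by a line, in orange for open and dark blue for closed eyelids. For E24 and E29 the open eye is on the left, and for E32 and E28 the right eye is on the left; E32 has the lowest Rlbp1 and Rdh5 values of the 4 mice.

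Among the wider lists, 1 gene was called between open and closed eyelids. Dhrs3, a retinaldehyde reductase found in many epithelia, had 190, 211, 250 and 227 CPM in the 4 open eyes, against 34.9 and 57.4 CPM in the closed Egr1-/- eyes and 56.5 and 55.6 CPM in the closed Egr1+/- eyes. Open and closed eyes did not overlap, and the log2 fold change was 2.17 ± 0.18 (SE, edgeR adjusted p = 0.00484). Keratinocyte markers were higher with it, at 3933 to 15856 CPM in open eyes, against 1116 and 1500 CPM in closed Egr1-/- eyes and 1693 and 2326 CPM in closed Egr1+/- eyes, with 3 of 10 genes called higher and none at 0. Their part in the Dhrs3 difference was not tested. None of the 38 pigment epithelium, 11 pigment and 17 phagocytosis genes tested passed. Over all genes the calls were 83 with all mice, 0 without E24, 1 without E29 and 129 without E32.

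The 3 labelled Egr1-/- mice were also set against the 1 Egr1+/- mouse, both eyes summed. Its spread, with no second Egr1+/- mouse, was taken from the 3 others. None of the 6 genes with enough reads passed. In edgeR's test 0% of all 16453 genes did, with 273 at an unadjusted p under 0.05 and 94 called by DESeq2. Rlbp1 had 205, 147 and 69.5 CPM in the Egr1-/- mice E24, E29 and E32, against 171 CPM in the Egr1+/- mouse. E32, with both eyelids open, was lowest, and the Egr1+/- mouse lay within the range of the others (-0.26 ± 0.58). Rdh5 had 55.9, 43.0 and 28.3 CPM in the Egr1-/- mice, against 60.7 CPM in the Egr1+/- mouse, which was the highest of the 4 (-0.49 ± 0.39). Mertk had 5.74, 7.53 and 8.96 CPM in the Egr1-/- mice, against 5.01 CPM in the Egr1+/- mouse, the lowest of the 4 (0.61 ± 0.46). Lrat was at -0.80 ± 0.68, Rgr at -0.10 ± 0.29 and Ttr at -0.21 ± 0.27. The fitted value of Best1 was 2.46, given with no test. Best1 had 1 and 0 reads in the eyes of E24, 1 and 2 in those of E29, 5 and 9 in those of E32, and 1 and 0 in those of the Egr1+/- mouse. Rpe65 had 1, 2 and 2 reads in E24, E29 and E32, against 1 in the Egr1+/- mouse, too few to test. The edgeR adjusted p was 0.999 for each of the 6 genes other than Rpe65 and Best1. In E32, Müller glia markers summed to 1633 and 1602 CPM and rod markers to 265 and 42.7 CPM, against 2453 to 3133 CPM and 429 to 955 CPM in the other 6 eyes; their part in its low Rlbp1 and Rdh5 was not tested.

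The genes most like Rpe65 across the 15 libraries, by Pearson's r of log2(CPM + 1) over 18037 genes ranked, were Tac2 (0.999), Lrrc67 (0.997), Sebox (0.996), Opn1mw (0.996) and Cabp4 (0.996), the last a calcium-binding protein of photoreceptor synapses. Sebox had 25.2 to 31.0 CPM in adults and 0 to 0.533 CPM in the younger libraries. For the mean of the 8 genes they were Gabrr1 (0.995), Sebox (0.993), Vsx1 (0.993), Gabrr2 (0.993) and Opn1mw (0.992). The 15 points share ages, and pairs of day 3 eyes share a mouse, so that r mostly restates the difference between the 3 adult libraries and the 12 younger ones.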

How the data were processed

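Polyadenylated RNA of 15 mouse eyes or eye libraries was sequenced after 18 PCR cycles, by a ligation method that does not keep strand. Per the submitters' processing notes, CASAVA 1.8, Bowtie 0.12.9, TopHat2 2.0.11, SAMtools and build mm8 were used; the counting tool is not given in the sources used here. The labels mention both fixation and RNAlater, and which applied to the sequenced eyes is not clear. The authors deposited raw read counts per transcript and RPKM values, scaled by exon length and an authors' library total, for 24373 transcripts. For 2673 symbols with several transcripts, the one with the highest mean count was kept.

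Counts were tested with edgeR 4.0.16 in R 4.3.3 (TMM scaling, filterByExpr, quasi-likelihood test, Benjamini-Hochberg threshold 0.05), fitted over all genes; the SE is the log2 fold change divided by the square root of F. The 7 newborn and adult libraries shared 1 fit, the 8 day 3 eyes had the mouse as a block, and the eyes of each of 4 mice were summed for genotype and age steps (11 units with the newborn and adult libraries). Labels name no animals at birth or in adults, and p-values there rest on differences among libraries, which may be technical. CPM uses TMM-adjusted totals over 15 libraries. Alternatives were RLE, the authors' totals, no filter, no lens genes, DESeq2 1.42.0, subsets of libraries, a replicate block and leaving out each library or mouse.

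The 8 genes, the lists and the markers were chosen with earlier results of these data known. All 8 genes are named in every comparison, with values where they could be tested, and of each list up to 4 genes with the smallest p among those that passed; Opn3 and Otx2 with age were added after their values were seen. Genes that passed the filter only through the group where they were high are described with no test, though counts of calls over all genes and in the alternative runs include them. The values of 1 visual cycle gene are not reported here. Slc4a5 and Pmel were not found in the files under these symbols. Replicate numbers were not taken as pairs: the difference between replicates 1 and 2 correlated at 0.0663 across genes between the newborn groups. Promoters come from RefSeq on GRCm38.p6, a later build than that of the files, and no coordinate was carried between builds.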

Additional observations from a re-analysis of the deposited data

How the results depend on the processing

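Lrat, Rlbp1, Rdh5, Rgr, Ttr and Mertk stayed higher in adult than in newborn eyes under each alternative run. No replicate block changed a call of the 8 genes: with the block, Rlbp1 at birth was at -1.35 (edgeR adjusted p = 0.0145), 1 gene of the 8 passed and 3262 genes were called in all. The authors' totals gave 2 of the 8 passing at birth, 33 calls in adults, and 1 of the 8 passing from birth to day 3 in labelled knockouts; they put adult Rgr at 0.064 and Ttr at 0.042, and day 3 over newborn Rdh5 at -0.18 and Rgr at -0.088. DESeq2 gave 102 calls in adults, 2131 calls and 1 of the 8 for the difference of the genotype effect, 352 for the eyelid, 94 for day 3 genotype, and 4910 calls and 1 of the 8 from birth to day 3. Without the low-count filter, 13 genes were called in adults. Wild types alone gave 5734 calls with age. For the eyelid, 400 genes were called with no mouse block, which put Lrat at -0.45 and Mertk at 0.41, and 210 with E24 and E29 alone. Adult Rlbp1 was at -0.00847 with RLE and with DESeq2, and at -0.000419 with adult libraries alone. Closed eyes alone put day 3 Rlbp1 at 0.22 and Rgr at 0.091. The mean log2(CPM + pseudocount) of the 8 genes was higher by 3.07 in adult than in younger libraries with a pseudocount of 1, by 3.53 with 0.1 and by 2.51 with 5. The cause of these shifts was not tested.

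When single libraries or mice were left out, the calls ranged over 0 to 5116 at birth (of the 8 genes 0 to 3), 0 to 205 in adults, 0 to 1613 for the difference of the genotype effect, 0 to 129 for the eyelid, 0 to 6 for day 3 genotype and 0 to 6149 from birth to day 3 (of the 8 genes 0 to 1). Log2 fold changes that turned sign in these runs did not pass in any comparison. At birth they were Lrat -0.74 to 0.29, Rdh5 -0.34 to 0.034, Rgr -0.35 to 0.53, Ttr -0.66 to 0.14. In adults they were Rpe65 -0.56 to 0.47, Lrat -0.86 to 0.41, Rlbp1 -0.0076 to 0.0196, Rdh5 -0.17 to 0.25, Rgr -0.25 to 0.21, Ttr -0.36 to 0.26. For the difference of the genotype effect they were Lrat -0.56 to 0.73, Rdh5 -0.011 to 0.44, Rgr -0.53 to 0.33, Ttr -0.18 to 0.64. For the eyelid they were Lrat -0.48 to 0.78, Rgr -0.36 to 0.28, Ttr -0.68 to 0.31, Mertk -0.39 to 0.18. For day 3 genotype they were Rlbp1 -0.62 to 0.057, Rgr -0.24 to 0.039, and from birth to day 3 Rdh5 -0.21 to 0.11, Rgr -0.25 to 0.48, Mertk -0.38 to 0.085. Best1 had too few reads to judge in every library, as had Rpe65 before adulthood, and the cause of these low counts was not tested.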

Other observations

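Best1 reads were uneven among the day 3 eyes. Of the 19 reads in the 8 eyes, 5 and 9 lay in the right and left eye of mouse E32, and the other 6 eyes had 0 to 2 reads each. Lrat differed between the eyes of the Egr1+/- mouse E28, with 0.524 CPM in the right eye and 2.01 CPM in the left eye. The E28 left eye was the highest of the 8 day 3 eyes for Lrat.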
